A study of Mus musculus with 4 samples.

Results

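The Ms4a genes encode small membrane proteins that cross the membrane 4 times and are clustered on mouse chromosome 19. Of the 32285 genes in the deposited matrices, 19 carry an Ms4a symbol, and the 9 described here were taken by symbol: Ms4a1, Ms4a2, Ms4a4a, Ms4a4b, Ms4a4c, Ms4a6b, Ms4a6c, Ms4a6d and Ms4a7. They were read across the B cell, T cell, natural killer (NK) cell, monocyte, macrophage, plasmacytoid dendritic cell and basophil classes of the blood samples.

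The study sequenced single peripheral blood mononuclear cells of 2 inbred mouse strains, BL/6 and SM/J, at 12 and 20 months of age, with no further treatment or engineered allele named in the labels. Blood was taken by cardiac puncture, density separation gave the mononuclear fraction, and 10x 3' libraries were made. Both ages of a strain were multiplexed into 1 10x run and deposited as separate matrices. Each matrix, 1 strain at 1 age, is called a library here, and no comparison has a biological replicate. Strain, 10x run and the fit of SM/J reads to a reference made from another strain cannot be told apart. Each library held 3 tagged aliquots that are not known to be separate animals. Their values show spread within a library and are not replicates.

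Members of the family mark particular blood cells. Ms4a1 encodes CD20, the B cell surface protein that is the target of therapeutic antibodies, and Ms4a2 encodes the beta chain of the high-affinity IgE receptor, which arms basophils and mast cells. Ms4a4b is known from T cells, where its protein associates with the costimulatory receptor GITR, the product of Tnfrsf18. The human counterparts of Ms4a4a and Ms4a7 are markers of macrophages, and the proteins of Ms4a4a and Ms4a6d have been linked to the phagocyte receptors Dectin-1 and VSIG4.

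After filtering, 11596 of 12299 deposited cells were used: 3398 for BL/6 at 12 months, 3102 for BL/6 at 20 months, 2407 for SM/J at 12 months and 2689 for SM/J at 20 months. Values of the 4 libraries are given below in that order throughout. Median depth per cell was 4060, 4914, 4729 and 8837 unique molecular identifiers (UMIs), so the oldest SM/J library was the deepest. No barcode was shared between the ages of a strain, and 8 were shared between strains. Cells fell into 26 clusters, of which 24 were named from marker genes and 2 stayed unnamed (1, 3, 86 and 27 cells). Ms4a genes were kept out of both the clustering and the markers, so that their levels did not set the classes. Of the 8 B cell markers and the 8 T cell markers, 7 each were highest in their class, and of the 6 classical monocyte markers 5 were. All markers of the nonclassical monocyte, macrophage, NK cell, plasmacytoid dendritic cell and basophil classes were highest in theirs. Names end in -like because they rest on transcripts alone. No cluster was named for conventional dendritic cells.

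Because different clusters held the same class in each strain, the clusters are named beside the results. The B cell-like class had 2004, 955, 1285 and 1637 cells. In BL/6 most of them lay in cluster 0, led by Fcer2a and Cr2, and in SM/J most lay in clusters 1, 18, 22 and 25. Classical monocyte-like cells were cluster 4 in BL/6 and almost all cluster 23 in SM/J, and nonclassical monocyte-like cells were clusters 5 and 21. Macrophage-like cells were cluster 3, led by Prg4 and with Alox15 and Cd5l among its leading genes. Whether these macrophage-like cells came from the circulation was not tested. T cell-like clusters 9, 10, 11 and 13 held cells of both strains. Levels are CPM, the UMIs of a gene summed over a class in 1 library and scaled to a class total of 1000000, with exact Poisson 95% intervals, and shares of cells have exact binomial 95% intervals. Both cover counting error only.

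The 9 genes span 374.045 kb of chromosome 19 (GRCm38). From low to high coordinate they are Ms4a1 (chr19:11249675-11266241, minus strand), Ms4a7 (chr19:11321039-11336146, minus), Ms4a4a (chr19:11375523-11392790, plus), Ms4a4c (chr19:11404770-11427246, plus), Ms4a4b (chr19:11443553-11467055, plus), Ms4a6c (chr19:11469366-11482192, plus), Ms4a6b (chr19:11516512-11531256, plus), Ms4a6d (chr19:11586604-11604849, minus) and Ms4a2 (chr19:11615523-11623719, minus). Ms4a4b, the lymphoid member described below, therefore lies between Ms4a4c and Ms4a6c, whose highest levels were in monocytes. Upstream sequence was found in the RefSeq table (GRCm38.p6) for 7 of the 9 genes.

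The bases before the transcription start of Ms4a4b and Ms4a4c are shown because these neighbours are close copies with different cell classes at their highest level. The windows lie at chr19:11443308-11443552 and chr19:11407411-11407660 on the plus strand, 5′ to 3′, within the 250 bases before the RefSeq start and without bases annotated as exon. The Ms4a4c window lies inside the span of the gene given above, so its RefSeq start differs from the first base of that span. Capitals mark runs of at least 8 bases that are identical in both.
Ms4a4b: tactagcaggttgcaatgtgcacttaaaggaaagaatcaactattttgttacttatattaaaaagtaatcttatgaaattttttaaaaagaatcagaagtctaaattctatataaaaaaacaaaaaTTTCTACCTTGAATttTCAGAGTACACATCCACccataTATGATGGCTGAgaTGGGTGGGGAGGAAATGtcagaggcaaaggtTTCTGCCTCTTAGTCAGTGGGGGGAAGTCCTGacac
Ms4a4c: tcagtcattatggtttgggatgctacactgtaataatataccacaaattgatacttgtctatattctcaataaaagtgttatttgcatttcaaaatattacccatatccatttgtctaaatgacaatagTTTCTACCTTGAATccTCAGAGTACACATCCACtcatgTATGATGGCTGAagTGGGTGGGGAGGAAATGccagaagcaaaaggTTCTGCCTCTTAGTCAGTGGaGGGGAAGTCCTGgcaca
Over 126 aligned bases the pair was 89.7% identical, and the 6 runs in capitals cover 92 bases of each window, the longest of them 20 bases. In the Ms4a4b window the last 2 runs adjoin and read as 1 stretch of capitals. The part of each window farther from the start held no such run. Whether any of these bases takes part in the different levels was not tested.

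A second close pair is Ms4a6b and Ms4a6c, of which the first was high in T cells as well as monocytes. Their windows lie at chr19:11518309-11518452 and chr19:11469118-11469365, plus strand, with capitals as above. The Ms4a6b window also lies inside the span of its gene given above. Its 106 bases nearest the RefSeq start were left out because an annotated exon begins there.
Ms4a6b: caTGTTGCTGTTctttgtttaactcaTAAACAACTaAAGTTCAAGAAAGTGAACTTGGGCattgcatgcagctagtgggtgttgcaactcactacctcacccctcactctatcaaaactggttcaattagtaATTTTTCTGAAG
Ms4a6c: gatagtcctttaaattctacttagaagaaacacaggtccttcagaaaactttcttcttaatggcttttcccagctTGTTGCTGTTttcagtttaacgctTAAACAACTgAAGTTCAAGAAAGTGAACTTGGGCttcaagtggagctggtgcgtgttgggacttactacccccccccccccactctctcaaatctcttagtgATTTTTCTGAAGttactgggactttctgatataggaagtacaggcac
Identity was 82.4% over 136 aligned bases, with 4 identical runs that cover 55 bases and a longest run of 24. Among the windows of Ms4a2, Ms4a4a, Ms4a4b, Ms4a4c, Ms4a6b and Ms4a6c, no other pair aligned over more than 21 bases.

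The window before Ms4a2, chr19:11623720-11623969 on the minus strand, is shown because this gene was found almost only in 1 rare class. Capitals mark GATAA on either strand, the core of the motif of GATA factors.
Ms4a2: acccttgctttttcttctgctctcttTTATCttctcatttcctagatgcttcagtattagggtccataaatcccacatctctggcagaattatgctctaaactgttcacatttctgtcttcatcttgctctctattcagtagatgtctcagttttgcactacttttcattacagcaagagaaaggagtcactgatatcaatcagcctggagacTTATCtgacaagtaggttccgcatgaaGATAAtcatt
The motif occurred 3 times, at 224, 37 and 10 bases before the start, and 22.6% of all 32851 upstream windows in the table held it at least once. A match describes the letters and is not evidence of binding.

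Ms4a1 was high in B cells of all 4 libraries. Its level in the B cell-like class was 724 CPM (706 to 742) in BL/6 at 12 months, 797 (769 to 826) in BL/6 at 20 months, 781 (760 to 802) in SM/J at 12 months and 744 (732 to 756) in SM/J at 20 months. The 4 libraries thus lay within a narrow band, in which the 12-month BL/6 aliquots (747, 738 and 688 CPM) and the 20-month SM/J aliquots (736, 733 and 764 CPM) overlapped. A UMI of Ms4a1 was seen in 84.6%, 85.1%, 88.2% and 93.5% of B cell-like cells, and thinning every cell to 1000 UMIs gave 45.9%, 50.8%, 49.96% and 47.4%. The higher share in the deepest library was thus not seen at equal depth, where 77, 96, 68 and 24 cells of all classes fell short of 1000 UMIs and were left out.

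Ms4a1 was low in T cells and monocytes. T cell-like cells had 2.33, 2.94, 6.38 and 8.72 CPM, which is 0.32%, 0.37%, 0.82% and 1.17% of the B cell level. Cd79a, a B cell receptor chain, stood at 0.49%, 0.59%, 1.04% and 1.10% of its B cell level in the same T cells. At 1000 UMIs per cell the share of T cell-like cells with Ms4a1 was between 0.279% and 0.866%. In the nonclassical monocyte-like class the level was 1.25, 2.28, 20.7 and 8.86 CPM, higher in SM/J, where Cd79a was also higher (9.14, 7.65, 35.8 and 18.6 CPM). Cd22, a B cell lectin, reached 12.0, 6.41, 566 and 316 CPM there. Cd22 was past 2-fold between strains at both ages and Cd79a at 12 months, as was Cd79b, the second receptor chain, with 45.8 against 12.5 CPM. Cd79b was also past 2-fold between ages in SM/J, at 14.2 CPM in the older library. Whether the Ms4a1 UMIs of SM/J monocytes share a source with these B cell transcripts was not tested. Small classes had some higher values of Ms4a1, each from few UMIs. Plasmacytoid dendritic cell-like cells had 53.2, 7.06, 0 and 24.8 CPM, and the first rests on 18 UMIs in 2 cells, with 114 CPM in 1 aliquot and 0 in another. The 2, 5, 14 and 10 erythroid cell-like cells had 216, 107, 196 and 292 CPM, from 3, 4, 14 and 19 UMIs.

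Within the B cell-like class, Ms4a1 differed more between clusters than the level of the whole class did between libraries. Cluster 8, whose leading genes include Vpreb3, a surrogate light chain-like gene of immature B cells, had the highest level, at 1002 CPM (940 to 1068) and 1273 CPM (1195 to 1355) in BL/6 and 1898 CPM (1734 to 2074) in SM/J at 12 months. The counting intervals of these 3 libraries did not overlap, nor did their aliquots, which ran from 946 to 1040, from 1244 to 1285 and from 1755 to 2152 CPM. The lowest levels were in clusters 0 and 1, with 593 and 611 CPM in BL/6 cluster 0 and 658 and 582 CPM in SM/J cluster 1.

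Clusters 2 and 18, led by Fcrl5 in BL/6 and by Sox5 and Zbtb32 in SM/J, lay between, at 909 and 811 CPM in the 2 ages of BL/6 and at 890 and 794 CPM in those of SM/J. The clusters found almost only in SM/J also expressed Ms4a1. Cluster 22, led by Fras1, had 738 and 840 CPM, cluster 25, led by Zcwpw1, had 740 CPM, and the cycling cluster 17, marked by Mki67, had 772 CPM in the 20-month SM/J library. Of the 1637 B cell-like cells of that library, 867 were in cluster 25.

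Ms4a1 was measured beside a list of 10 partners in the B cell receptor complex, all of which were abundant enough to compare. Between ages in BL/6 0 of 10 were past 2-fold, where 0.571% of all genes compared in B cells were. In SM/J, Cd40, a costimulatory receptor, fell with age and was the 1 partner past that fold, against 8.35% of all genes. Cd22 alone was lower in SM/J than in BL/6 at 12 months, against 6.44% of all genes. At 20 months Cd40 and Btk, a signalling kinase, were lower and Cd81, a tetraspanin, was higher in SM/J, which makes 3 of 10 against 24.8% of all genes. Cd40 had 49.3, 47.7, 49.1 and 16.8 CPM, so the 20-month SM/J library alone was low. All partner values are of the whole B cell-like class. Cluster 25 made up 867 of its 1637 cells in that library and 15 of 1285 in SM/J at 12 months. Whether the partners moved with this make-up was not tested. The median log2 ratio of the 10 partners was 0.09 and -0.03 between ages in BL/6 and SM/J, against 0.05 and -0.06 over all genes compared. Between strains it was -0.20 at 12 months and -0.51 at 20 months, against -0.09 and -0.22 over all genes.

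Ms4a2 was found in basophils and nearly nowhere else. The basophil-like class, 40, 56, 15 and 11 cells, had 495 CPM (396 to 612), 379 CPM (310 to 458), 931 CPM (705 to 1207) and 603 CPM (401 to 872), from 85, 107, 57 and 28 UMIs. SM/J was above BL/6 at each age, but with 15 and 11 cells the class was below the 100 cells set for a ratio and the 20-month intervals overlapped. BL/6 aliquots overlapped between ages, with 388 to 613 CPM at 12 months and 300 to 442 CPM at 20 months.

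No Ms4a2 UMI was seen in any T cell-like, NK cell-like, macrophage-like or plasmacytoid dendritic cell-like cell. B cell-like cells had none in 3 libraries, which allows shares of up to 0.150%, 0.314% and 0.233% of cells with a UMI, and 4 UMIs in the 20-month SM/J library. Monocytes of BL/6 had 1 or 2 UMIs in 3 of the class and library sums. The other chains of the receptor had other orders over the libraries. Fcer1a, the IgE-binding alpha chain and a marker used to name the class, had 530, 319, 294 and 172 CPM in basophils, and Fcer1g, the gamma chain shared with many receptors, had 1381, 1724, 1291 and 1465 CPM. Ms4a2 had its highest value in SM/J at 12 months, whereas Fcer1a had its highest value in BL/6 at 12 months.

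Outside basophils, 2 of the 8 listed partners of the IgE receptor were past 2-fold in some comparison, and 4 or 5 of the 8 entered each of those. The shares of all genes past that fold were 8.35% and 24.8% in the B cell comparisons named next, 5.59% and 4.83% in those of classical monocytes and 2.22% and 6.29% in those of T cells. Fyn, a Src family kinase, had 59.6, 62.1, 33.7 and 11.3 CPM in B cells, with log2 ratios of -1.49 between ages in SM/J and -2.36 between strains at 20 months. In classical monocytes it had 39.9, 57.5, 119 and 142 CPM, with ratios of 1.56 and 1.29 between strains at 12 and 20 months. Fyn was thus lower in B cells and higher in classical monocytes of SM/J at 20 months. Its B cell values are also of the whole class, whose make-up of clusters differed between the libraries. Fcer1g had 52.3, 15.0, 23.8 and 50.4 CPM in T cells, with ratios of -1.73 between ages in BL/6 and -1.11 between strains at 12 months, which share the 12-month BL/6 library. Of the 451, 530, 360 and 231 T cell-like cells, 177, 51, 23 and 27 were in cluster 10. Whether Fcer1g moved with this make-up was not tested.

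**Figure D1:**
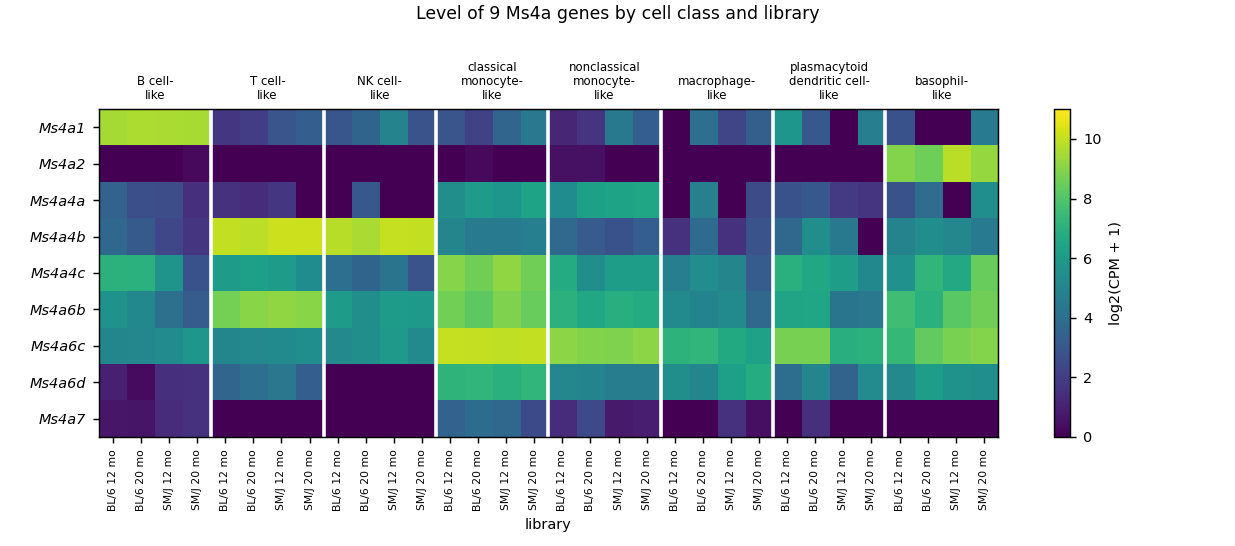
Level of the 9 Ms4a genes, as log2(CPM + 1), in 8 cell classes (blocks) and the 4 libraries (columns); colour runs from 0 (dark) to high (yellow). Ms4a1 is bright in B cells, Ms4a2 in basophils, Ms4a4b in T and NK cells, and Ms4a6c in monocytes, whereas Ms4a7 is dark throughout.

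Ms4a4b was the member shared by T and NK cells. In T cell-like cells (451, 530, 360 and 231 cells) it had 1029 CPM (990 to 1069), 954 CPM (920 to 989), 1137 CPM (1087 to 1189) and 1143 CPM (1078 to 1210). NK cell-like cells had 898, 768, 1039 and 1027 CPM. Both SM/J libraries were above both BL/6 libraries in each class, by less than 2-fold, and in NK cells the intervals of the 12-month libraries overlapped (813 to 989 against 891 to 1204 CPM). B cell-like cells had 12.2, 7.56, 4.00 and 2.21 CPM, or 1.18%, 0.79%, 0.35% and 0.19% of the T cell level. Cd3d, a T cell receptor complex chain, stood at 0.45%, 0.25%, 0.50% and 0.37% of its T cell level in B cells, and Cd3g, another chain, at 1.18%, 0.23%, 2.49% and 0.54%.

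The T cell clusters all expressed Ms4a4b. Cluster 9, CD8 cells led by Gzmm and with Ccl5 in 70.3% of them, had 1042, 1177, 1153 and 913 CPM. Cluster 10, CD8 cells with Gzmb and with Ccl5 in 92.8% of them, had 1074 and 980 CPM in BL/6 and too few cells in SM/J. Cluster 11, CD4 cells with Lef1 and Igfbp4, had 864, 729, 941 and 1079 CPM. Cluster 13, CD4 cells with Ikzf2 and Icos, had 1086, 948, 1220 and 1341 CPM, above cluster 11 in every library and without overlap of the intervals in all but SM/J at 20 months. Tnfrsf18, the gene of the GITR partner, had 50.01, 53.9, 39.4 and 54.3 CPM in T cells.

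Ms4a6b was abundant in T cells and in classical monocytes alike. T cell-like cells had 421 CPM (396 to 446), 524 CPM (498 to 550), 573 CPM (537 to 609) and 528 CPM (485 to 575), and classical monocyte-like cells had 397, 302, 463 and 351 CPM. Unlike Ms4a4b it was low in NK cells, at 66.2, 42.7, 64.6 and 60.8 CPM. Basophil-like cells had 198, 131, 294 and 388 CPM, and nonclassical monocyte-like cells 133, 93.9, 121 and 108 CPM. Across the T cell clusters it ranged from 343 to 690 CPM, and the highest value of each library was in cluster 13.

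**Figure D2:**
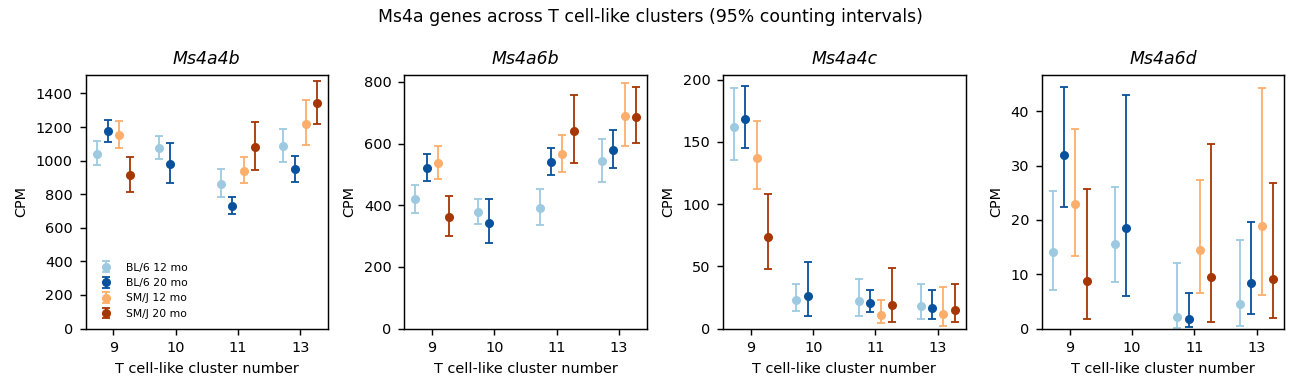
CPM of Ms4a4b, Ms4a6b, Ms4a4c and Ms4a6d in T cell-like clusters 9, 10, 11 and 13 by library, with 95% counting intervals; clusters with fewer than 30 cells in a library are not drawn. Ms4a4b and Ms4a6b are high in all 4 clusters, whereas Ms4a4c is high in cluster 9, where it runs from 73.4 to 168 CPM.

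Ms4a4c split the T cells. Cluster 9 had 162, 168, 137 and 73.4 CPM, and the values of clusters 10, 11 and 13 lay between 11.2 and 25.8 CPM. A split by receptor genes that uses no clustering gave a like picture. Cells with a UMI of Cd8a or Cd8b1 and none of Cd4 had 107, 163, 128 and 66.9 CPM of Ms4a4c, and cells with Cd4 alone had 17.4, 20.3, 0 and 29.5 CPM. The intervals of the CD8 and CD4 cells did not overlap in 3 libraries, and in SM/J at 20 months they did (42.4 to 100 against 13.5 to 56.0 CPM). Ms4a4b was high on both sides of this split, with 934, 843, 989 and 1156 CPM in CD4-only and 1092, 1185, 1214 and 990 CPM in CD8-only cells, and so was Ms4a6b, with 419, 573, 620 and 635 CPM in CD4-only and 414, 533, 555 and 378 CPM in CD8-only cells. The Ms4a4b intervals were apart in 3 libraries, with CD8 cells higher (856 to 1016 against 1035 to 1151, 784 to 906 against 1122 to 1250, and 891 to 1094 against 1136 to 1295 CPM), and overlapped in SM/J at 20 months. The Ms4a6b intervals of CD4 and CD8 cells were apart in SM/J at 20 months (549 to 731 against 316 to 449 CPM) and overlapped in the other libraries.

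Ms4a6d was low in T cells, at 15.1, 34.6, 22.4 and 5.82 CPM in CD8-only and 3.48, 5.64, 5.27 and 9.83 CPM in CD4-only cells. The CD8 value of SM/J at 20 months and the CD4 values of both 12-month libraries rest on 2 UMIs each, under the 3 counts taken as the limit of detection. Only in BL/6 at 20 months were these intervals apart (24.6 to 47.3 against 1.83 to 13.2 CPM). B cell-like cells had 0.928, 0.261, 1.78 and 2.01 CPM, and no NK cell-like cell held a UMI.

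Ms4a6c was high in monocytes of both kinds and of every library. Classical monocyte-like cells (245, 468, 133 and 109 cells) had 1061 CPM (1020 to 1104), 1016 CPM (987 to 1046), 999 CPM (938 to 1064) and 1002 CPM (937 to 1070), and these intervals overlapped across strains and ages. Nonclassical monocyte-like cells (350, 702, 367 and 159 cells) were lower in each library, at 550, 479, 467 and 544 CPM. Basophil-like cells had 157, 329, 441 and 495 CPM, so Ms4a6c was not confined to monocytes. Macrophage-like cells had 137, 152, 101 and 76.8 CPM, and B and T cells between 31.8 and 54.0 CPM.

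Plasmacytoid dendritic cell-like cells differed by strain in Ms4a6c. They had 429 CPM (362 to 505) and 432 CPM (380 to 490) in BL/6, against 123 CPM (90.5 to 164) and 133 CPM (101 to 172) in SM/J, from 29, 52, 49 and 46 cells. The BL/6 aliquots with at least 10 cells lay between 405 and 452 CPM and the SM/J aliquots between 11.7 and 209 CPM, without overlap. These cell numbers were under the 100 set for a call, so the difference was described and not called. Ms4a6b went the same way in these cells, at 85.8, 89.96, 18.3 and 20.3 CPM.

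Ms4a4c was also high in classical monocytes, at 516 CPM (487 to 546), 386 CPM (368 to 404), 577 CPM (530 to 626) and 390 CPM (350 to 434). Both 20-month libraries were below both 12-month libraries, and in each strain the aliquots of the 2 ages did not overlap, with 507 to 523 against 338 to 452 CPM for BL/6, and 521 to 649 against 357 to 450 CPM for SM/J. The difference was under 2-fold in both strains, with log2 ratios of -0.42 (-0.53 to -0.31) and -0.56 (-0.76 to -0.37). For Ms4a6b in the same cells the age ratios were -0.39 (-0.52 to -0.27) and -0.40 (-0.61 to -0.19). The SM/J aliquots of Ms4a6b overlapped between ages, since 1 of the 20-month aliquots had 466 CPM and the others 289 and 290 CPM. Basophil-like cells had 46.6, 149, 98.1 and 345 CPM of Ms4a4c, the last from 11 cells.

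Ms4a6d had 142, 152, 124 and 150 CPM in classical monocyte-like cells and 32.8, 29.8, 24.4 and 23.9 CPM in nonclassical ones. In macrophage-like cells it had 110 CPM (102 to 119) in SM/J at 20 months, the library that holds 398 of the 501 such cells. The other libraries, with 30 to 38 macrophages each, had 42.5, 32.1 and 74.0 CPM. Vsig4, the gene of its receptor partner and itself a macrophage marker used in naming, had 280, 532, 246 and 270 CPM there.

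Ms4a4a was found in both monocyte classes. Classical monocyte-like cells had 42.0, 64.1, 54.6 and 82.8 CPM, but the last value rests on 1 aliquot with 151 CPM beside 44.7 and 47.7 CPM in the others. Nonclassical monocyte-like cells had 39.5 CPM (31.9 to 48.2), 76.3 CPM (68.7 to 84.5), 83.1 CPM (72.6 to 94.7) and 89.4 CPM (72.9 to 109). The 12-month BL/6 library was thus the low one, and its aliquots (34.5 to 43.6 CPM) did not overlap those of any other library (68.6 to 107 CPM). Macrophage-like cells, the class in which the human gene is a marker, had 0, 27.0, 0 and 4.90 CPM. No UMI in 30 and 35 macrophages allows shares of up to 10% and 8.57% of cells with a UMI.

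Ms4a7 was scarce everywhere. Classical monocyte-like cells had 9.97, 13.8, 12.1 and 4.54 CPM, macrophage-like cells had 0, 0, 1 and 2 UMIs in all, and T cell-like cells had none. It did not reach the 20 CPM asked of a comparison in any of these classes. Counted per cell at 1000 UMIs, at least 2 of the 9 members were seen together in 51.0%, 46.5%, 46.6% and 39.4% of classical monocyte-like cells and in 23.7%, 28.9%, 36.8% and 33.3% of T cell-like cells. Macrophage-like cells were the sparse end, with none of the 9 seen in 78.9% to 91.2% of them.

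The comparisons between ages and strains used the 4 classes in which no library had fewer than 100 cells. Genes with at least 100 UMIs in a comparison and a mean of at least 20 CPM entered, and a gene was called when it differed at least 2-fold in log2(CPM + 1). No p-value can be given. Of 144 combinations of member, class and comparison, 72 entered and 7 were called. A member that enters through the 1 group in which it is high tends to differ, so these counts are read only beside the share of all genes called.

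**Figure D3:**
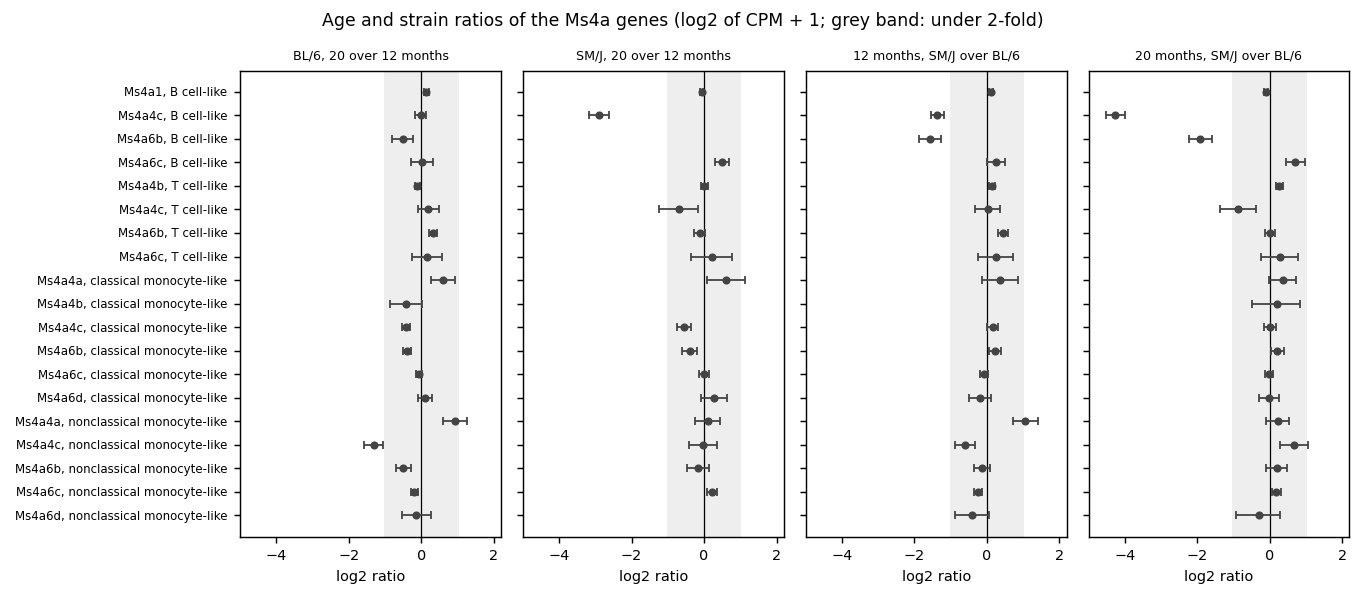
Log2 ratios of the members that entered, for 20 over 12 months in each strain and SM/J over BL/6 at each age, with 95% counting intervals; the grey band is under 2-fold. The 7 points outside the band are Ms4a4c in B cells in 3 panels, Ms4a6b in B cells in both strain panels, Ms4a4c in BL/6 nonclassical monocytes with age, and Ms4a4a in nonclassical monocytes between strains at 12 months.

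B cells held 5 of the 7 calls. Between ages in BL/6, 0 of 4 members were called, where 0.571% of all genes compared were. In SM/J 1 of 3 was called, against 8.35% of all genes. Between strains 2 of 4 were called at 12 months and 2 of 4 at 20 months, against 6.44% and 24.8%. The 5 calls are those of Ms4a4c and Ms4a6b in comparisons that share libraries, and with clusters 17, 22 and 25 left out 2 of the 5 were past 2-fold.

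Ms4a4c had 132 CPM (125 to 140) and 130 CPM (119 to 142) in B cells of BL/6, 50.7 CPM (45.5 to 56.4) in SM/J at 12 months and 5.88 CPM (4.86 to 7.04) in SM/J at 20 months. Aliquots lay between 125 and 143 CPM in BL/6, between 49.0 and 51.6 CPM in the younger and between 4.39 and 6.64 CPM in the older SM/J library, without overlap. In SM/J it fell by 2.91 with age on the log2 scale (-3.19 to -2.64), whereas the BL/6 ratio was -0.02 (-0.18 to 0.13). SM/J was lower than BL/6 by a log2 ratio of -1.37 (-1.54 to -1.20) at 12 months and -4.26 (-4.52 to -4.00) at 20 months.

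These ratios moved with the make-up of the B cell class. Ms4a4c had 172 and 182 CPM in BL/6 cluster 0 and 154 CPM (138 to 172) and 70.1 CPM (55.8 to 86.8) in SM/J cluster 1, clusters that also expressed Fcer2a and Cr2, genes of follicular B cells. Cluster 8 had 132 and 115 CPM in BL/6 and 27.2 CPM, from 7 UMIs, in SM/J at 12 months. Cluster 2 had 34.7 and 18.7 CPM, and cluster 18 had 8.56 and 5.35 CPM. In cluster 22 it was 1.88 and 5.59 CPM, in cluster 25 it was 0.541 CPM, and cluster 17 held no UMI in 69 cells, which allows a share of up to 4.35%. Clusters 17, 22 and 25 had next to no BL/6 cells, at most 4 per library.

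Where clusters 17, 22 and 25 were left out, a choice made after the data were seen, the SM/J age ratio of Ms4a4c was -1.44 and remained past 2-fold. The strain ratios were -0.40 at 12 months, no longer called, and -1.83 at 20 months. Cluster 18, with 8, 8, 103 and 189 cells, stayed in, so the make-up of the class still differed between the libraries of these ratios. With each strain clustered alone, which named 841 and 602 SM/J cells as B cell-like, the values were -1.54, -0.42 and -1.96. Thinning all cells to 1000 UMIs gave -2.13, -0.71 and -2.84, and a mitochondrial limit of 5% gave -0.73 at 12 months. Summed over libraries, Fcer2a moved over the same clusters: it had 311 and 186 CPM in clusters 0 and 1, 149 CPM in cluster 8, 23.4 CPM in cluster 2, 7.50 CPM in cluster 18, 7.37 CPM in cluster 22, 1.22 CPM in cluster 25 and 0.332 CPM in cluster 17.

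**Figure D4:**
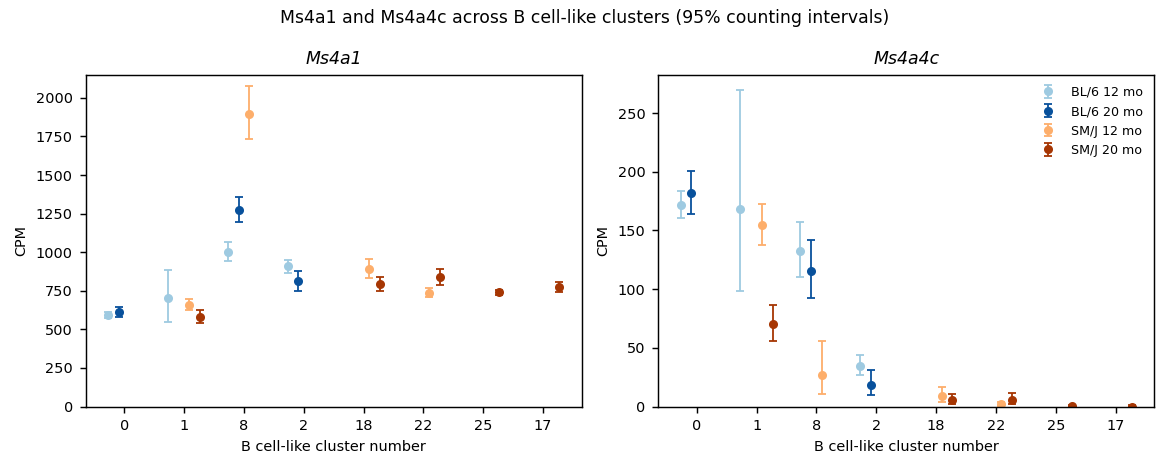
CPM of Ms4a1 and Ms4a4c in the B cell-like clusters by library, with 95% counting intervals; clusters with fewer than 30 cells in a library are not drawn. Ms4a1 is at 582 CPM or more in every cluster and peaks in cluster 8, whereas Ms4a4c goes from 182 CPM in cluster 0 to 0 in cluster 17.

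Ms4a6b was low in B cells and lower in SM/J. It had 48.2 CPM (43.7 to 53.1), 33.6 CPM (28.1 to 40.0), 15.6 CPM (12.7 to 18.8) and 8.19 CPM (6.98 to 9.55), and the aliquots of BL/6 (29.9 to 54.2 CPM) did not overlap those of SM/J (6.58 to 17.3 CPM). The strain ratios were -1.57 (-1.88 to -1.27) and -1.91 (-2.23 to -1.59), both called. With clusters 17, 22 and 25 left out they were -0.74 and -0.51, and with each strain clustered alone -0.80 and -0.61, under 2-fold in each case. A mitochondrial limit of 5% also ended the 12-month call, at -0.85. The B cell level was 11.5%, 6.43%, 2.72% and 1.55% of the T cell level. The Cd3d and Cd3g levels of B cells were 0.45% and 1.18% of those of T cells in BL/6 at 12 months, and 0.50% and 2.49% in SM/J at 12 months.

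Ms4a6c went the other way in B cells without a call, at 32.0, 32.6, 38.3 and 54.0 CPM. Its age ratio in SM/J was 0.49 (0.29 to 0.68), and -0.17 with each strain clustered alone. Its strain ratio at 20 months was 0.71 (0.45 to 0.98). The Ms4a1 ratios were small: with age 0.14 (0.08 to 0.20) for BL/6 and -0.07 (-0.11 to -0.02) for SM/J, and 0.11 (0.06 to 0.16) and -0.10 (-0.16 to -0.04) between strains at 12 and 20 months. TMM scaling, which shifts the median of all genes in B cells by -0.07, 0.17, 0.05 and 0.29 in the same comparisons, turned the SM/J age ratio to 0.10 and the 20-month strain ratio to 0.19. The Ms4a1 age ratio of SM/J was -0.23 with each strain clustered alone and -0.25 with clusters 17, 22 and 25 left out, and the 12-month strain ratio was 0.26 with thinning. The BL/6 age ratio was 0.24 with a mitochondrial limit of 5% and 0.07 with TMM scaling.

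In T cells no member was called in any of the 4 comparisons, with 4 members entering each. The share of all genes called was 2.22% and 0.86% between ages in BL/6 and SM/J, and 6.29% and 3.68% between strains at 12 and 20 months. For Ms4a4b the log2 ratios were -0.11 (-0.19 to -0.03) and 0.01 (-0.10 to 0.11) with age and 0.14 (0.06 to 0.23) and 0.26 (0.16 to 0.36) between strains. Ms4a6b had its largest ratio between strains at 12 months, 0.44 (0.32 to 0.57), where the aliquots of BL/6 (410 to 429 CPM) and SM/J (569 to 588 CPM) did not overlap. At 20 months that ratio was 0.01 (-0.13 to 0.15). Ms4a4c had 64.0, 73.2, 64.9 and 39.7 CPM in T cells, and its 20-month strain ratio of -0.87 (-1.37 to -0.39) came closest to the call and was past 2-fold without aliquot 2 of the SM/J library.

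Classical monocytes had no called member either, with 6, 5, 5 and 6 entering, against 2.12%, 2.05%, 5.59% and 4.83% of all genes called. In this class the median size of the members' age ratios (log2) was 0.41 for BL/6 and 0.40 for SM/J, against 0.16 and 0.20 over all genes. Between strains the members' median size was 0.19 at 12 months and 0.11 at 20 months, against 0.31 and 0.28 over all genes. For Ms4a4a the age ratio was 0.60 (0.27 to 0.94) in BL/6, where aliquots overlapped, and 0.59 (0.07 to 1.12) in SM/J. Thinning all cells to 1000 UMIs gave 1.88 for BL/6, past 2-fold. Without the 20-month SM/J aliquot at 151 CPM, aliquot 2, the SM/J value was -0.22, and without aliquot 3 of that library it was 1.02, past 2-fold.

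Nonclassical monocytes held the remaining 2 calls. Between ages in BL/6 1 of 5 members was called and between strains at 12 months 1 of 5, against 2.01% and 5.83% of all genes. Between ages in SM/J 0 of 4 and between strains at 20 months 0 of 5 were called, against 0.874% and 3.96%.

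Ms4a4c had 108 CPM (95.2 to 122), 42.8 CPM (37.2 to 49.1), 70.6 CPM (60.9 to 81.3) and 69.1 CPM (54.6 to 86.2) in nonclassical monocyte-like cells. With age it fell by 1.31 on the log2 scale in BL/6 (-1.58 to -1.05), and the aliquots of 88.6 to 128 CPM and 40.5 to 47.2 CPM did not overlap. The SM/J ratio was -0.03 (-0.42 to 0.35). The difference between the strains' age ratios was not tested.

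For Ms4a4a the 12-month strain ratio was 1.06 (0.71 to 1.41), just past 2-fold, and the BL/6 age ratio was 0.93 (0.61 to 1.27), just under it. Both share the low 12-month BL/6 library. TMM scaling gave 0.90 for the strain ratio, a pseudocount of 5 CPM 0.99, keeping called doublets 0.98, leaving out aliquot 2 of the SM/J library 0.89, and leaving out aliquot 3 of the BL/6 library 0.99. The BL/6 age ratio was past 2-fold with a mitochondrial limit of 5% (1.02), at resolution 2.0 (1.04), with Ms4a genes among the variable genes (1.04) with cells thinned to 1000 UMIs (1.36) and without aliquot 2 of the 12-month library (1.01). Ms4a6c ratios were between -0.24 and 0.22 in this class.

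**Figure D5:**
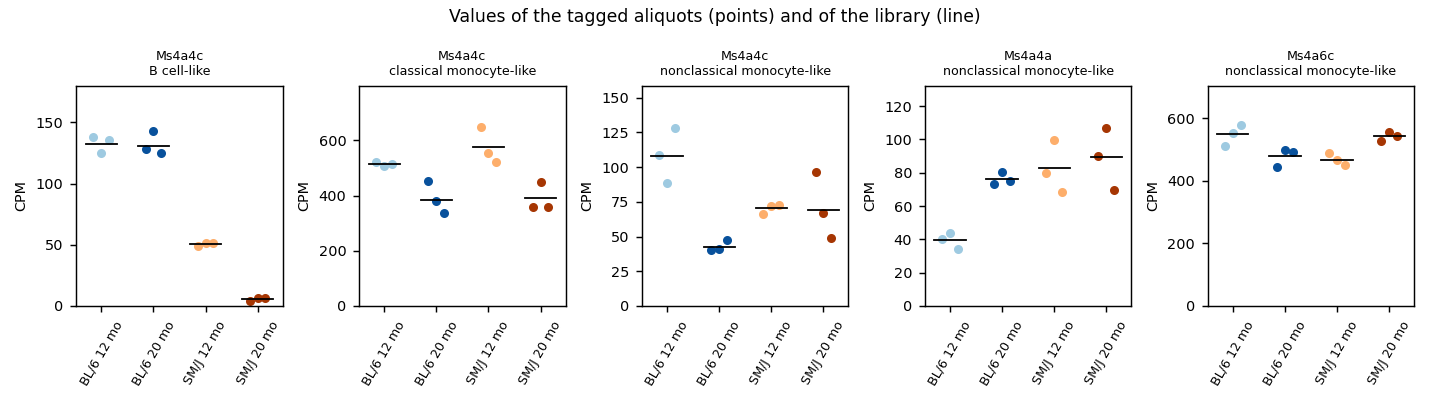
CPM in each tagged aliquot (points) and in the whole library (line) for Ms4a4c in B cells and both monocyte classes and for Ms4a4a and Ms4a6c in nonclassical monocytes. In B cells the Ms4a4c points of both SM/J libraries lie at 51.6 CPM or less and those of BL/6 at 125 CPM or more; in BL/6 nonclassical monocytes the points of the 2 ages are apart.

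The genes whose pattern was most like each member were taken by Pearson correlation of log2(CPM + 1) over 25 units, a unit being a class in a library with at least 50 cells, among 9743 genes. Units of 1 library share its depth and preparation, so r is a description. Ms4a1 was nearest to Ebf1 (r = 0.953), Iglc2 (0.931) and Cd79a (0.930), a B cell transcription factor and 2 antigen receptor genes. Ms4a4b was nearest to Gm33104 (0.962), Sh2d1a (0.956), which encodes a T and NK cell signalling adaptor, and Gm2682 (0.953). Ms4a2 was nearest to Fcer1a (0.998), Defb40 (0.996) and Htr1b (0.996), which rests on the 1 basophil unit with enough cells.

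Among the myeloid members, Ms4a6c was nearest to Myd88 (0.953), an adaptor of Toll-like receptors, Csgalnact2 (0.946) and Fem1c (0.944). Ms4a6d was nearest to Mocos (0.952), Tiam1 (0.934) and G430095P16Rik (0.926), and Ms4a4a to Sowahc (0.945), Gm35154 (0.933) and Tns3 (0.924). Ms4a7, at its low level, was nearest to Clec5a (0.871), Ciao2a (0.841) and Lilra6 (0.840). Ms4a4c and Ms4a6b, each spread over several classes, had lower highest values. The former was nearest to 1600014C10Rik (0.844), Rnf213 (0.834) and Arhgap27os2 (0.832), the latter to Emb (0.861), Frat2 (0.854) and Znrf1 (0.842).

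Between members, the Ms4a4b and Ms4a4c pair and the Ms4a6b and Ms4a6c pair did not have the most similar patterns. Ms4a4b and Ms4a4c had r = -0.085 over the 25 units and Ms4a6b and Ms4a6c had 0.534, whereas Ms4a4a and Ms4a6c had 0.829, Ms4a6c and Ms4a6d 0.787 and Ms4a4c and Ms4a6c 0.770. The transcripts of Ms4a4b and Ms4a4c are 90.5% identical over 1651 aligned bases and those of Ms4a6b and Ms4a6c 89.3% over 1192. Ms4a6c and Ms4a6d, the pair at 0.787, are also alike, with 81.5% over 905 bases. Ms4a6b and Ms4a6d had 84.1% over 917 bases and r = 0.593. Ms4a2 and Ms4a4b had 87.7% over 1179 bases and r = -0.047. In 3' libraries the end of a transcript is read. Of the 451 windows of 50 bases in the last 500 bases, Ms4a4c shared 53 (11.8%) with Ms4a4b and Ms4a6c shared 62 (13.7%) with other transcripts, Ms4a6b among them, and the other 7 members shared none. Counts of Ms4a4c and Ms4a6c are therefore uncertain. These shares do not bound the error, least of all where the copy is far more abundant, as Ms4a4b is beside Ms4a4c in T cells, and how reads of these windows were assigned was not tested.

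The other 10 Ms4a genes of the files added 1 gene with a clear level. Ms4a8a had 249, 174, 158 and 358 CPM in macrophage-like cells and 84.5, 64.6, 74.9 and 104 CPM in classical monocyte-like cells. Its aliquots in macrophages of SM/J at 20 months (334 to 372 CPM) lay above those of every other library (146 to 247 CPM). Among the relatives outside the cluster, Tmem176a had 27.5, 19.0, 1.74 and 54.3 CPM and Tmem176b 19.8, 18.6, 9.85 and 53.3 CPM in T cells, and both were called higher in SM/J at 20 months, where 3.68% of all genes were called in T cells. In nonclassical monocytes Tmem176b was called lower in SM/J at that age, at 12.4 against 32.5 CPM (log2 ratio -1.32), against 3.96% of all genes. No other gene of the listed relatives was called in B cells, T cells or monocytes.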

How the data were processed

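The authors deposited raw UMI counts per gene and cell in 4 matrices, 1 per strain and age, as Cell Ranger 7.0.1 wrote them per the file headers. The genome build mm10 and Seurat 4.3.0 are named in the submitters' processing notes. Reads were not reprocessed, so losses of SM/J reads to a reference of another strain, and reads shared by close copies, stay in the counts. The tag libraries served only to place cells in aliquots, and all value columns found a sample (0 were left over).

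Cells with at least 500 UMIs, 200 genes and at most 10% mitochondrial UMIs were kept. Scrublet doublets (expected rate 0.06; 41, 42, 21 and 21 cells) were left out. Counts were scaled to 10000 per cell, and 2000 variable genes without Ms4a, mitochondrial, sex-linked and antigen receptor genes gave 30 principal components, 15 neighbours and Leiden clusters at resolution 1 (seed 0). A cluster took the class with the highest marker level if 3 or more markers were detected, and stayed unnamed at low depth or when another class led its 10 leading genes. How ties were settled was chosen after the clusters were seen. Software was Python 3.11.15, scanpy 1.11.5, igraph 0.11.9, scikit-image 0.26.0, scipy 1.17.1, numpy 2.4.6, matplotlib 3.10.9, pandas 2.3.3, scikit-learn 1.9.0, anndata 0.12.19, and R 4.3.3 with edgeR 4.0.16 for TMM factors only.

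UMIs were summed per class and library (CPM). Deposited totals were 18234645, 19466469, 14250603 and 30627357 UMIs for BL/6 and SM/J at 12 and 20 months. Ratios are log2(CPM + 1) with conditional binomial 95% intervals, and the ratio code was tested on simulated counts. A count of 0 was given the limit that 3 counts allow. All 9 members are named, with the 3 genes most correlated with each, and listed partners and relatives where called or set beside a member. The members and gene lists were chosen with earlier results of these data known. Alternatives were TMM scaling, another pseudocount, filter, mitochondrial limit, resolution and depth, doublets kept, strains clustered alone, and each aliquot of either library of a ratio left out.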

Additional observations from a re-analysis of the deposited data

Results flagged for a closer look

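In 2 genes every pair of aliquots moved one way with age in BL/6 and the opposite way in SM/J. The difference between the strains was not tested in either, since each strain has 1 library per age. For Ms4a1 in B cells the log2 age ratio was 0.14 in BL/6 and -0.07 in SM/J, so that SM/J minus BL/6 was -0.21. TMM scaling turned the SM/J ratio to 0.10, and the direction of Ms4a1 in SM/J therefore rests on the scaling. For Ms4a6c in nonclassical monocytes the age ratio was -0.20 in BL/6 and 0.22 in SM/J, and SM/J minus BL/6 was 0.42.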

How the results depend on the processing

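No paired analysis was possible because each strain and age has 1 library. The 7 called ratios kept their sign under each of the 18 settings in which they were computed; the 2 of nonclassical monocytes were not computed with the B cell clusters left out. Of the 65 ratios under 2-fold, 32 changed sign under at least 1 setting, the largest of them 0.59 in size. Members called between ages in BL/6 (1) were 2 with at least 20 UMIs and 1 CPM, a mitochondrial limit of 5%, resolution 2.0 or Ms4a genes among the variable genes, and 0 with cells thinned to 1000 UMIs. In SM/J (1) they were 4 with the lower filter and 2 with a mitochondrial limit of 20%, resolution 2.0 or Ms4a genes among the variable genes. Between strains at 12 months (3) they were 5 with the lower filter and 1 with a limit of 5%, strains clustered alone or thinning. With the 3 B cell clusters left out both B cell calls were lost, which leaves 1, the call of nonclassical monocytes, not recomputed there. At 20 months (2) they were 9 with the lower filter and 1 with strains alone, thinning or the clusters left out. Leaving out an aliquot of the older or SM/J library gave 1 to 1 and 1 to 2 between ages in BL/6 and SM/J, and 2 to 3 between strains at each age. Leaving out one of the younger or BL/6 library gave 1 to 2 and 1 to 1 between ages, 2 to 3 between strains at 12 months and 1 to 2 at 20 months. The lowest of these, without BL/6 aliquot 1, lost Ms4a6b in B cells, whose ratio was still -1.82. The lower filter admits more genes. The share of all genes called is given for the main setting only, so the counts under other settings have no share to be read beside. Thinning leaves fewer UMIs for the same filter, and 6 of the 7 called ratios were still past 2-fold with it: Ms4a4c was at -1.58 with age in BL/6 nonclassical monocytes, and in B cells at -2.13 with age in SM/J and -2.84 between strains at 20 months, Ms4a6b was at -1.20 and -1.19 between strains in B cells, and Ms4a4a at 1.05 in nonclassical monocytes. The exception was Ms4a4c in B cells between strains at 12 months (-0.71). For the other settings the cause was not tested. At mitochondrial limits of 5% and 20% the classical monocyte-like class held 4 and 1, and 0 and 0, BL/6 cells, so none of its ratios was computed. The settings with Ms4a among the variable genes, without the rule on leading genes, with the B cell clusters left out and without an aliquot of the younger or BL/6 library were chosen after the data were seen.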
